A study of Homo sapiens with 4 samples.

Results

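PCBP2 (ENSG00000197111.11) encodes poly(C)-binding protein 2, an RNA-binding protein that grips runs of cytosine in single-stranded RNA through KH domains. It is known for stabilising and controlling the translation of messenger RNAs, for helping viral RNAs to be translated, for restraining the antiviral adaptor MAVS and for carrying iron to client proteins. The gene makes several protein isoforms, because small exons between the second and the third KH domain are included or skipped. All rows of the skipped exon table that name PCBP2 were taken, which gave 11 events of the table's 65601. An event is a middle exon with 1 exon on each side, so the same exon can appear more than once with different neighbours, and the 11 events cover 8 distinct exons. The gene was selected on the inclusion level of 1 deep event, on its 39-nt exon, which differed slightly between the 2 sets of the table. For that reason differences between the sets are described here, and nothing is concluded from p-values of PCBP2 events.

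The cells were HEK293T, a human embryonic kidney line. Per the labels, 2 libraries came from cells transfected with 70 nM of a MOE gapmer antisense oligonucleotide (ASO) against the small nucleolar RNA SNORD89, and 2 from cells with no treatment. A gapmer binds its target RNA by base pairing, and RNase H then cuts the RNA. RNA was collected at 48 hours. The labels name no control ASO and repeat 1 transfection text for all samples, which leaves unclear whether untreated cells saw the lipid reagent. Poly(A) RNA was sequenced as paired reads of 150 bases. No header or label ties either set to a treatment, so the text speaks of a first and a second set, each with a library 1 and a library 2. The name of the table puts SNORD89 ahead of the untreated cells, a hint that was not used to assign directions. Library numbers are places in the table and pair nothing. SNORD89 itself is not measured by exon skipping.

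The libraries held between 38613055 and 43929373 junction reads, which are reads that span a splice junction. Library 2 of the second set stood apart: 3280 events had no reads in it, against 513 to 624 in the others. Over 13329 events of intermediate inclusion, its scatter against each other library was 6.18 to 6.22 times that of binomial sampling at the median, against 2.65 to 2.90 times among the other 3. PCBP2 had reads on all 11 events in every library, and values without library 2 of the second set are given where a difference depends on it.

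All 11 events passed the minimum used for calls, a mean over libraries of 20 junction reads. PCBP2 ranked 118 of 11623 genes by its junction reads, summed over events. Each event carried a mean of 524 to 9639 reads per library. Counting error was therefore small, and the 95% Wilson intervals given below cover counting error only. The inclusion level is the share of the inclusion form once reads are corrected for the length over which either form can be counted.

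The exons fell into 3 kinds. Nearly always included were the 24-nt, 73-nt and 170-nt exons, with mean levels above 0.99. For the 73-nt exon this was measured only against a join that leaves out the 93-nt, 42-nt and 39-nt exons as well. Nearly never included were a 95-nt and a 356-nt exon that share a start, with mean levels of 0.00107 and 0.00128. In between lay the 93-nt, 42-nt and 39-nt exons, which hold the remaining 6 events. Each of these 3 has a length divisible by 3, so each adds or removes whole codons: 31, 14 and 13. All 18 distinct exons in the events, neighbours included, were found in GENCODE release 29 with the same length and spacing. Their sequences, read from release 29 transcripts (GRCh38, plus strand), are shown because the isoforms differ by them. Capitals in the first pair mark runs of at least 3 cytosines, the kind of tract that KH proteins of this family bind. In the next pair they mark the 39-nt exon, and in the last line the 3 bases that set the 56-nt form of the following exon apart from its 53-nt form.
93-nt exon, chr12:53858544-53858636 (hg19): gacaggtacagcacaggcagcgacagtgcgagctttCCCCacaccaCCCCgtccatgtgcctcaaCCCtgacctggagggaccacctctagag
42-nt exon, chr12:53859716-53859757 (hg19): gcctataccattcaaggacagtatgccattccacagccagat
39-nt exon between the 73-nt exon and the 56-nt form: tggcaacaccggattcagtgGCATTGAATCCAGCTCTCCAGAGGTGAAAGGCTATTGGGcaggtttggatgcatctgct
39-nt exon between the 73-nt exon and the 53-nt form: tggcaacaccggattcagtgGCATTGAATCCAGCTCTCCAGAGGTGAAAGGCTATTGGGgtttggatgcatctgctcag
39-nt exon skipped, 73-nt exon to the 56-nt form: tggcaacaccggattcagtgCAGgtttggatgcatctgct

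The 93-nt exon was the most C-rich of the 3, with 37.6% cytosine and 3 runs of at least 3 C. Over 3064 exons of 93 nt in release 29 the median was 24.7% cytosine, and 65.6% held CCC on the transcript's strand, the only strand searched. In the 42-nt and 39-nt exons, with 31.0% and 20.5% cytosine, CCC was not found. Among exons of those lengths, 38.4% and 36.9% held it. These are matches of letters and describe no binding.

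**Figure D1:**
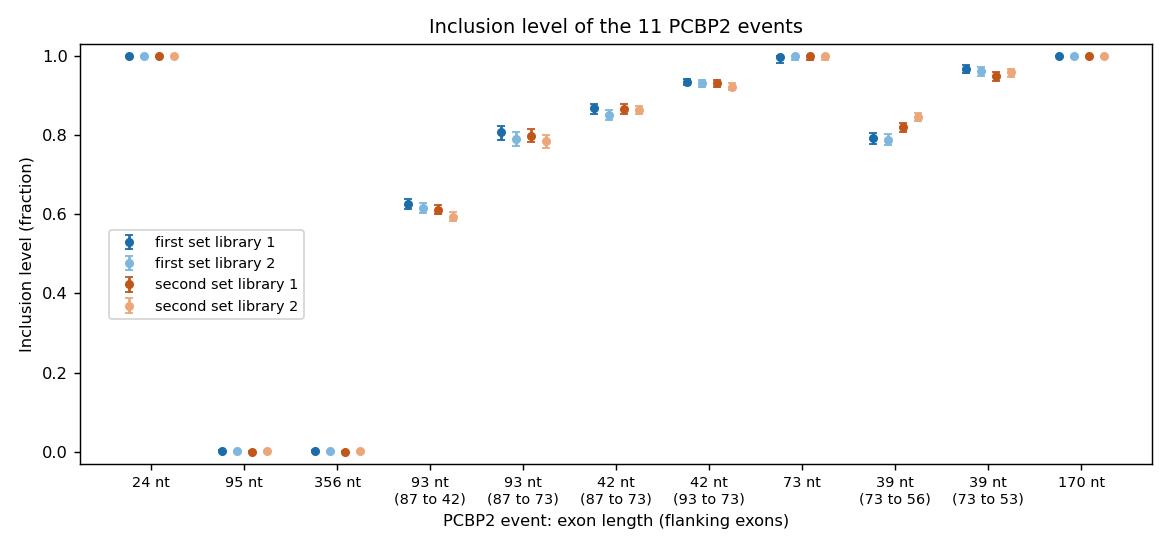
Inclusion level (fraction, vertical axis) of each PCBP2 event, in the order of the exons along the gene and with the lengths of the flanking exons in brackets; points are the 4 libraries and bars are 95% Wilson intervals. The 24-nt, 73-nt and 170-nt exons sit near 1, the 95-nt and 356-nt exons near 0, and the 93-nt, 42-nt and 39-nt exons lie between 0.594 and 0.968.

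The 24-nt exon (chr12:53849131-53849154) and the 170-nt exon (chr12:53865422-53865591) each carry part of a KH domain, the first and the third. For the 24-nt exon, 1 and 1 skipping reads were seen for the first set, against 3 and 0 for the second, out of 2855 to 3673 reads. For library 2 of the second set the 0 skipping reads allow a share of up to 0.0903%, taken as 3 counts of its reads, and the upper end of the Wilson interval was 0.115%. The 170-nt exon had 0 and 2 skipping reads for the first set, against 5 and 4 for the second, from 7897 to 11059 reads. Both exons were thus included in all but a few reads of every library. The 73-nt exon (chr12:53861005-53861077), which lies between the 42-nt and 39-nt exons, has 1 event, set between an 87-nt exon upstream and the 56-nt form. A skipping read there leaves out the 93-nt, 42-nt, 73-nt and 39-nt exons together. Library 1 of the first set had 1 such read and the other libraries none, from 488 to 564 reads. Joins from the 93-nt or 42-nt exon past the 73-nt exon are in no event and were not measured. The length of the 73-nt exon is not divisible by 3.

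The 95-nt exon (chr12:53854115-53854209) had 14 and 5 inclusion reads for the first set, against 3 and 8 for the second, beside 4008 to 4815 skipping reads. In release 29 it belongs to 1 transcript, which is classed as a target of nonsense-mediated decay, the pathway that removes messages with early stop codons. The longer 356-nt form (chr12:53854115-53854470) had 17, 11, 3 and 13 inclusion reads in the same order and belongs to 1 transcript classed as a retained intron. Both have the same upstream junction, so these reads are partly the same reads. The libraries of the sets overlapped for the 95-nt exon and for the 356-nt exon.

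The 93-nt exon followed by the 42-nt exon was the deepest of the intermediate events, with 6353 to 7521 reads. Libraries 1 and 2 stood at 0.626 (95% interval 0.613 to 0.638) and 0.615 (0.602 to 0.628) for the first set, against 0.612 (0.599 to 0.624) and 0.594 (0.582 to 0.606) for the second. Library 2 of the second set was lowest, and the interval of library 1 of that set overlapped those of both libraries of the first set. The set means were 0.620 and 0.603, a difference of 0.0174, beside gaps of 0.0105 and 0.0177 between the libraries of one set. Without library 2 of the second set the difference was 0.00850. The authors' deposited table gives this event a difference of 0.018 with p = 0.4822 and a false discovery rate (FDR) of 1.

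The second event on the exon is set against skipping to a 65-nt form of the 73-nt exon, which has the same start and an earlier end. Its levels were higher: 0.807 (95% interval 0.789 to 0.824) and 0.790 (0.772 to 0.808) for the first set, against 0.799 (0.781 to 0.815) and 0.784 (0.767 to 0.800) for the second. In each library this was above the other event on the exon by 0.175 to 0.190, and the intervals of the 2 events did not overlap in any library. The events differ in the reads that count as inclusion and in those that count as skipping. Before the 42-nt exon, inclusion reads were 4719 and 4586 for the first set, against 5102 and 5294 for the second. In the event set against the 65-nt form they were 2327 and 2352, against 2583 and 2749. From the 87-nt exon upstream, 1739 and 1767 reads of the first set and 1993 and 2227 of the second joined the 42-nt exon, leaving out the 93-nt exon alone. Only 343, 384, 401 and 466 reads, in the same order, joined the start that the 73-nt exon and its 65-nt form share and left out both. These joins were compared after the values were seen: skipping the 93-nt exon alone was 4.60 to 5.07 times as frequent in reads as skipping both. A level of about 0.8 from the second event leaves out the more frequent skipped form, and it also rests on fewer inclusion reads. How much each adds to the gap between the events was not tested. The sets overlapped for this event.

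The 42-nt exon was included more after the 93-nt exon than after the 87-nt exon. After the 93-nt exon its level was 0.934 (95% interval 0.925 to 0.942) and 0.932 (0.922 to 0.940) for the first set, against 0.931 (0.922 to 0.939) and 0.922 (0.913 to 0.930) for the second. After the 87-nt exon it was 0.867 (0.854 to 0.879) and 0.851 (0.837 to 0.864), and 0.866 (0.853 to 0.877) and 0.864 (0.852 to 0.875). The difference between the 2 neighbours was 0.0587 to 0.0803, in the same direction in all 4 libraries, with intervals that did not overlap in any library. It was larger than the gaps between libraries of one set, which were at most 0.0158. The events may share reads on the junction from the 42-nt to the 73-nt exon, so they are not independent. Reads that joined the 93-nt exon to the 73-nt exon numbered 207 and 202 for the first set, against 239 and 294 for the second. Of the 26 PCBP2 transcripts in release 29, 0 join the 93-nt exon to the full 73-nt exon. From the donor of the 87-nt exon, 2 go to the full 73-nt exon, 8 to the 42-nt exon and 7 to the 93-nt exon. Joins to the 65-nt form, which has the same start as the 73-nt exon, were left out of these counts. The counts therefore do not say whether the junction seen in the reads is in release 29.

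**Figure D2:**
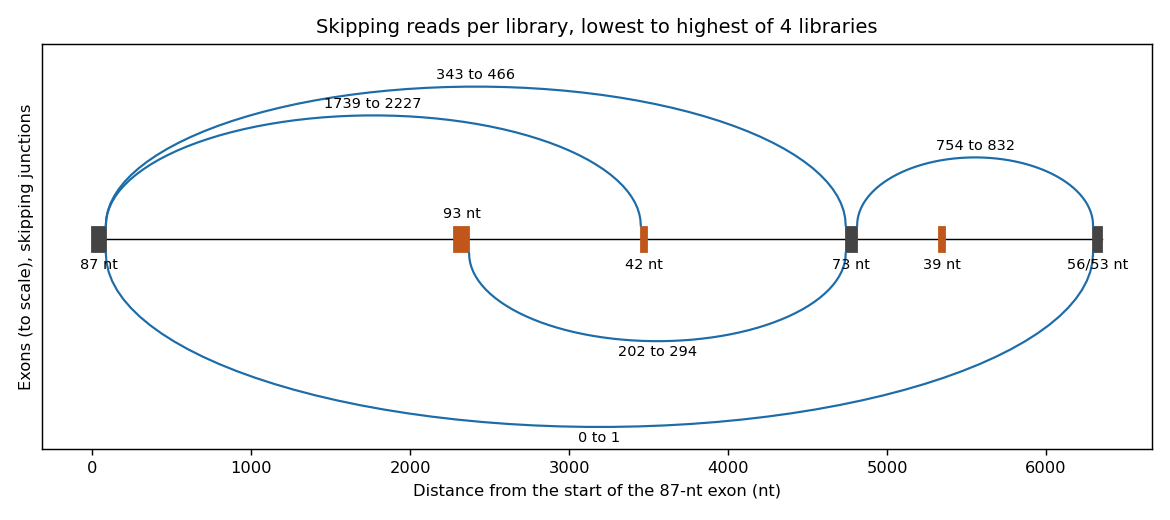
Exons of the alternative part of PCBP2 drawn to scale against the distance in nt from the start of the 87-nt exon, with arcs for junctions that skip exons and the lowest and highest number of reads over the 4 libraries beside each. The 93-nt, 42-nt and 39-nt exons are orange. The arc from the 87-nt to the 42-nt exon is the deepest, with 1739 to 2227 reads. The arc from the 87-nt to the 56-nt exon, which leaves out the 73-nt exon and all orange exons, has 0 to 1. The 754 to 832 reads that skip the 39-nt exon are summed over both forms of the next exon.

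The 39-nt exon (chr12:53861589-53861627) lies between the 73-nt exon and an exon with alternative acceptor sites 3 bases apart. In the event with the 56-nt form, its level was 0.792 (95% interval 0.778 to 0.804) and 0.788 (0.775 to 0.801) for the first set, against 0.820 (0.808 to 0.831) and 0.847 (0.836 to 0.857) for the second, from 4194 to 5501 reads. Both libraries of the first set were below both of the second, by a set mean of 0.790 against 0.833. This difference of -0.0433 was the largest of the 11 events, and it is the value that chose the gene. The libraries of the first set differed by 0.00311 and those of the second by 0.0268. Without library 2 of the second set the difference was -0.0299, and without library 1 of that set it was -0.0567. In the authors' deposited table the difference is -0.043 with p = 0.007868 and an FDR of 0.09371.

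In the event with the 53-nt form the same exon was at 0.968 (95% interval 0.956 to 0.976) and 0.962 (0.949 to 0.971) for the first set, against 0.949 (0.937 to 0.959) and 0.959 (0.948 to 0.967) for the second. Here both libraries of the first set were above both of the second, by a set mean difference of 0.0107, and the intervals of all 4 libraries overlapped. With 1 library left out the difference was 0.00601 to 0.0154. The authors' deposited table gives this event a difference of 0.011, p = 0.1013 and an FDR of 0.5332. The events on the exon thus had opposite signs. Their inclusion reads differ, 3470 against 1508 in library 1 of the first set, although both contain the junction from the 73-nt to the 39-nt exon. The reads counted thus depended on the acceptor that followed. Reads on the shared junction may come from molecules that go on to the other form. How many did is not known, so neither level can be read strictly as inclusion before the named form.

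Chosen after the values were seen, skipping reads give the acceptor used, because each is 1 junction from the 73-nt exon to the 56-nt or to the 53-nt form. In the first set 724 and 746 reads joined the 56-nt form and 40 and 47 the 53-nt form. In the second set 755 and 690 joined the 56-nt form and 77 and 64 the 53-nt form. The share to the 53-nt form was 5.24% (95% Wilson interval 3.87 to 7.05%) and 5.93% (4.49 to 7.79%) for the first set, against 9.25% (7.47 to 11.4%) and 8.49% (6.70 to 10.7%) for the second. The second set was higher in both libraries, and apart from library 1 of the first set against library 1 of the second, the intervals of the sets overlapped. It comes from the same contrast and was not tested. Release 29 holds 3 transcripts that join the 39-nt exon to the 53-nt form and 0 that join the 73-nt exon to it, against 8 and 4 for the 56-nt form.

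**Figure D3:**
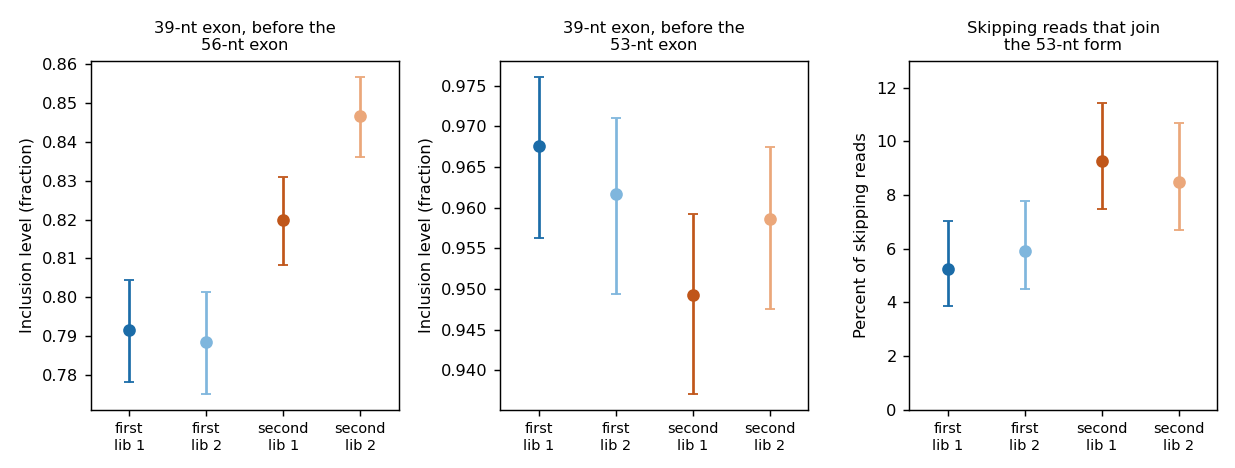
Inclusion level of the 39-nt exon before the 56-nt and the 53-nt form of the next exon (fraction, left and middle; axes do not start at 0) and the share of skipping reads that join the 53-nt form (percent, right), for each library with 95% Wilson intervals. Before the 56-nt form the first set is lower at 0.792 and 0.788, before the 53-nt form the 4 intervals overlap, and the share to the 53-nt form runs from 5.24% to 9.25%. The left and middle events may share inclusion reads.

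Of the 11 PCBP2 events, 0 were called in the authors' deposited table, where a call needed an FDR under 0.05 together with a difference of 0.1 or more in size, and 2.71% of the 54503 events with enough reads were called. On the FDR alone the authors' deposited table also gave 0 PCBP2 events, beside 5.72% of all. At an unadjusted p under 0.05 it was 1 event in the authors' deposited table, against 14.3% of all tested events. By a quasi-binomial model fitted here to all tested events, 0 were called and 1 had an unadjusted p under 0.05, while 3.23% of all events did; that model called 0 of all tested events (0.0%) at a difference of 0.1 or more and 1 (0.00183%) on its adjusted p alone. By both, the event with an unadjusted p under 0.05 was the 39-nt exon before the 56-nt form. The contrast of that event chose the gene, so nothing is read from these counts. Levels in the first set lay wholly above or below those in the second for 3 of the 5 PCBP2 events with a mean between 0.05 and 0.95, beside 33.2% of all such events. Of the 3, the first set was higher in 2, the 93-nt exon before the 42-nt exon and the 42-nt exon after the 93-nt exon. It was lower in 1, the 39-nt exon before the 56-nt form. The 39-nt exon before the 53-nt form and the 170-nt exon also had the first set wholly higher. Their means of 0.959 and 0.999 lie outside the range of this count. Without library 2 of the second set, the 42-nt difference after the 93-nt exon went from 0.00624 to 0.00189.

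PCBP2 was set beside other deep events. Over 451 events with a mean of at least 1000 reads and a mean inclusion between 0.05 and 0.95, in 325 genes and with the 5 of PCBP2 among them, the median gap between libraries was 0.0132 for the first set, against 0.0207 for the second. For the PCBP2 events the medians were 0.0105 and 0.0145. The median absolute difference between the sets was 0.00725 for PCBP2 and 0.0131 for all 451. The sets did not overlap in 3 of the 5 PCBP2 events and 37.9% of the 451. Those 3 hold the event that chose the gene, the 39-nt exon before the 56-nt form, so nothing is read from this count. That event also counts toward the PCBP2 medians. Relative to binomial sampling, the median scatter between the first-set libraries was 2.78 times for PCBP2. It was 2.65 times over 13329 events of intermediate inclusion, which are not limited to deep ones. Between the second-set libraries it was 4.49 times for PCBP2 and 6.18 times for those events. The events differ in depth, so these ratios are not a like comparison. Such medians rest on events that share reads and are a description only.

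**Figure D4:**
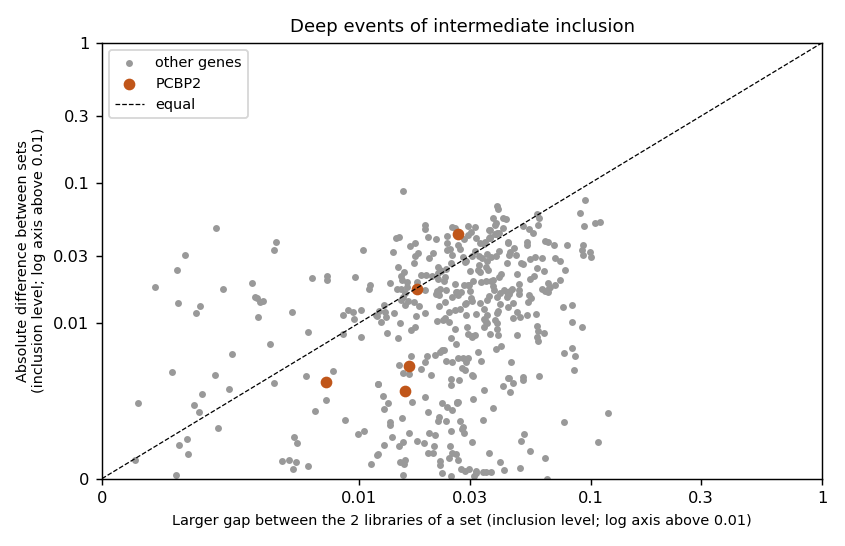
Absolute difference between the sets against the larger gap between 2 libraries of one set, both in inclusion level on axes that are logarithmic above 0.01, for 451 deep events; the dashed line marks equality. The 39-nt exon of PCBP2 before the 56-nt form is the highest orange point, at 0.0433 beside a gap of 0.0268, and the other PCBP2 points are at 0.0174 or below.

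PCBP2 took a slightly larger share of both libraries of the second set, by an amount that depended on the scaling and was not tested. Its events held 1092 and 1098 junction reads per 1000000 for the first set, against 1118 and 1178 for the second, a ratio of 1.05 for the second set over the first. In bulk RNA, fewer cells with a transcript and less of it per cell cannot be told apart. With 2 libraries against 2, an exact two-sided permutation test cannot go below p = 0.333. With the 100 genes that had most reads left out of each total, the ratio was 1.15. HNRNPK, a related poly(C)-binding protein, had 1302 and 1189 reads per 1000000 for the first set, against 907 and 793 for the second.

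Other genes of the family were taken from a list: PCBP1, PCBP3, PCBP4 and HNRNPK. PCBP1, a gene without introns, had no event. The other 3 had 20 events, of which 12 had enough reads and 1 was called (8.33%, beside 2.71% of all events). That event was a 148-nt exon of PCBP4 (ENSG00000090097.16, chr3:51995957-51996104). Its level was 0.277 (95% interval 0.195 to 0.376) and 0.256 (0.171 to 0.365) for the first set, against 0.192 (0.120 to 0.292) and 0.0721 (0.0399 to 0.127) for the second, from 56 to 82 reads. Library 2 of the second set was the lowest, and the sets did not overlap. In the authors' deposited table the difference is 0.135 at FDR 0.02498, and the quasi-binomial adjusted p-value was 0.863. Without library 2 of the second set the difference recomputed here went from 0.134 to 0.0742, under the 0.1 that a call needed, so the call was lost.

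The deepest alternative event of each family gene was not called, that of PCBP3 for its few reads. In HNRNPK (ENSG00000165119.14), a 72-nt exon at chr9:86588817-86588888 was at 0.864 (95% interval 0.855 to 0.872) and 0.863 (0.854 to 0.871) for the first set, against 0.868 (0.858 to 0.877) and 0.841 (0.831 to 0.852) for the second, from 5990 to 8872 reads. The sets overlapped, as library 1 of the second set was the highest and library 2 the lowest. In PCBP4, a 129-nt exon at chr3:51993911-51994039 was at 0.833 and 0.869 against 0.806 and 0.926, from 93 to 122 reads, and the sets overlapped. For PCBP3 (ENSG00000183570.12) a 75-nt exon at chr21:47333865-47333939 has an FDR of 7.382e-05 and a difference of 0.503 in the authors' deposited table. It had only 7 to 14 reads per library, under the minimum used here, with levels of 0.499 and 0.608 against 0.0998 and 0.

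Among 30 other genes with KH domains, 24 were in the table with 205 events. Of the 193 with enough reads, 2 were called, 1 in each direction, which is 1.04% beside 2.71% of all events. The median difference was -0.000734, and -0.00140 over all tested events. A 57-nt exon of ANKHD1 (ENSG00000131503.16, chr5:139851824-139851880), an ankyrin-repeat and KH-domain protein, was at 0.655 and 0.675 for the first set, against 0.926 and 0.828 for the second, from 151 to 228 reads. Both libraries of the first set were lower. In the authors' deposited table the difference is -0.212 at FDR 5.388e-05, and the quasi-binomial adjusted p-value was 0.863. In IGF2BP3 (ENSG00000136231.9), which binds and stabilises messenger RNAs, a 64-nt exon at chr7:23401153-23401216 was at 0.906 and 1 against 0.722 and 0.620. Both libraries of the first set were higher, but library 2 of the second set had 10 reads. In the authors' deposited table the difference is 0.282 at FDR 0.02379.

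Of 18 known partners and clients of PCBP2, such as ferritin chains and MAVS, 16 were in the table with 80 tested events, and 1 was called, which is 1.25% beside 2.71% of all events. This was a 546-nt exon of TMEM173, the innate immune adaptor STING, at chr5:138860744-138861289. It was at 1 in 3 libraries and at 0.692 (95% interval 0.488 to 0.841) in library 2 of the second set, from 33 reads. Without that library no difference was left. In the authors' deposited table the difference is 0.154 at FDR 0.02008.

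Exons with the most similar pattern were sought for the deepest intermediate PCBP2 event, the 93-nt exon before the 42-nt exon. The measure was the root mean square difference in inclusion level over the 4 libraries, among 26462 events of 5712 other genes with a mean of at least 200 reads. The closest were an 83-nt exon of SGSM3 (0.0137), a 51-nt exon of PUF60 (0.0142) and a 150-nt exon of VRK3 (0.0164). PUF60 is a splicing factor that binds pyrimidine tracts. With 4 libraries and levels that hardly vary, this likeness is one of level.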

How the data were processed

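Per the submitters' processing notes, reads were handled with cutadapt and STAR on the hg19 build. The table has the skipped-exon layout of rMATS, per the file headers; its version, the annotation and the handling of reads that fit several places are not given in the sources used here. Reads of PCBP2 can be shared with its 2 processed copies named in GENCODE release 29. The authors' deposited counts are junction reads for inclusion and skipping, 2 libraries per set. The deposited inclusion levels are fractions corrected for form length, the deposited difference is a score from the first set minus the second, and the p-values and FDR (q-values) are the authors' deposited ones. Levels recomputed here differed from those deposited by at most 0.0005.

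Positions are those of the table with 1-based starts. Names and sequences came from release 29 (GRCh38) by exon spacing, with no position converted. All 11 PCBP2 events were kept; calls needed a mean of at least 20 reads, an FDR under 0.05 and an absolute difference of at least 0.1. A quasi-binomial model (R 4.3.3, limma 3.58.1) was planned with its dispersion moderated by squeezeVar over all events and never under 1. For this comparison (54503 events, 200 altered by 0.3) it recovered 42 on simulated data with binomial noise and 32 with the scatter of the table, and on the deposited reads 0 events had an adjusted p under 0.05 and 4299 an unadjusted p under 0.05. After both results had been seen, the prior was restricted to the 16588 events with at least 5 reads of the rarer form in each set, giving 1 dispersion of 3.73. That version recovered 140 and 52, and its values are those in the text. Benjamini-Hochberg adjustment ran over all tested events. Where nothing says that the libraries came from separate cultures beyond the label of biological replicates, spread between them may be partly technical.

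The members and lists were chosen with earlier results of these data known. Named were all PCBP2 events, the deepest alternative event of each family gene, called events of the lists, and the 3 events most alike in level. The acceptor share, the skipping junctions, the set of deep events and the CCC search were chosen after values were seen. The alternatives tried were 21 planned choices, among them other read minimums, thresholds, scalings and each library left out.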

Additional observations from a re-analysis of the deposited data

How the results depend on the processing

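No paired analysis was possible because the table carries no replicate numbers for the libraries of a set. The difference of 0.0174 for the 93-nt exon before the 42-nt exon moved by less than the spread within sets under each alternative, between 0.00850 and 0.0262 with 1 library left out. Its level of 0.612 was 0.719 without the correction for form lengths and 0.795 in the other event on the exon; with 1 library left out it was 0.607 to 0.617. Over all 11 events, 71 of 77 recomputed differences had the sign of the reported one. The exceptions were 2 each for the 24-nt exon and the 93-nt exon set against skipping to the 65-nt form, and 1 each for the 73-nt exon and the 42-nt exon after the 87-nt exon. For the 93-nt exon, 0.00725 became -0.000965 without library 1 of the first set and -5.43e-06 without library 2 of the second. For the 39-nt exon before the 56-nt form they lay between -0.0567 and -0.0299, and for the 42-nt exon after the 87-nt exon the difference of -0.00562 became 0.00229 without library 2 of the first set. The count of called PCBP2 events was 0 under each alternative. The count of 3 called events in the family and KH-domain lists was 6 with no read minimum, 6 with no minimum difference, 1 at an FDR under 0.01 and 0 by the quasi-binomial model, both as planned and with the prior restricted after its results were seen; with 1 library left out and the FDR kept as deposited it was 2 to 3, the lost one being PCBP4 without library 2 of the second set. The first 3 follow from the thresholds, and for the model the cause was not tested. The reads ratio of 1.05 was 1.15 without the 100 genes with most reads, and 1.02 to 1.08 with 1 library left out. Depth limits the PCBP3, IGF2BP3 and TMEM173 events, which had few reads in some libraries.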
